A study of Mus musculus with 11 samples.

Results

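The genes described here are Foxp3 and 9 transcription factor genes whose products bind FoxP3 or act with it: Runx1, Runx3, Cbfb, Nfatc1, Nfatc2, Foxp1, Ets1, Bcl11b and Satb1. All probe sets that the array annotation gives exactly 1 gene symbol, that symbol being one of these 10, were taken, which made 42 of the 45101 probe sets on the array and 10 of its 18193 genes. RNA came from CD4 T cells of BALB/cA mice, sorted as naive cells from spleen and lymph nodes, stimulated with anti-CD3e and IL-2 beside irradiated feeder cells, infected with a MIGR1 retrovirus 24 h later and sorted for high GFP on day 7. The groups were cells given R397W FoxP3 (2 arrays), A384T FoxP3 (3 arrays), wild-type (WT) FoxP3 (3 arrays) or, as mock, MIGR1 without FoxP3 (3 arrays). All 4 groups shared strain, stimulation, vector and sort. FoxP3 in the first 3 groups was supplied by the retrovirus, in cells chosen for high GFP. What the cells' own Foxp3 gene added could not be told apart here. Nothing in the labels says that arrays of one group were separate cultures or mice, so the p-values rest on the spread between arrays alone, possibly a technical one.

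FoxP3 is the forkhead transcription factor of regulatory T cells. It acts on DNA mostly in the company of other factors: it binds Runx1, which itself needs the partner subunit Cbfb, it forms a complex with NFAT, the factor that calcineurin sends to the nucleus after T cell receptor stimulation, and it pairs with its relative Foxp1. Ets1 and Bcl11b bind regulatory elements of the Foxp3 gene, and Satb1, an organizer of chromatin, is known as a gene that FoxP3 represses in regulatory T cells. The substitutions A384T and R397W both lie in the forkhead domain, which contacts DNA.

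At each probe set the values are log2 differences from the mock median, so differences between arrays can be read and expression levels cannot. For this reason the labelled cell type could not be checked against the level of its markers. Array medians over all probe sets lay between -0.016 and 0.0022. Differences are given ± standard error (SE) from limma, fitted to 45037 probe sets with 1 mean per group, and a probe set was called at a Benjamini-Hochberg adjusted p under 0.05. The number of arrays limits the precision: over all probe sets the median SE was 0.139 between groups of 3 arrays and 0.155 where R397W entered. Arrays of the same number moved together across groups, so limma was also fitted with the array number as a block, and for the members that value is given where it alters a call.

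Few members changed in the fit without the block. In R397W over mock 0 of the 42 probe sets were called, as were 0% of all probe sets, and 0 members had an unadjusted p under 0.05, against 1.84% of all probe sets. In A384T over mock 2 members were called, 4.76% of the members against 2.17% of all probe sets, and in WT over mock 1 was called, 2.38% against 2.66%. In R397W over A384T 2 were called (1.47% of all), 1 higher and 1 lower (0.615% and 0.853% of all). None was called in R397W over WT (0 members, 1.75% of all, with 4 members at an unadjusted p under 0.05) or in A384T over WT (0 members, 0.102% of all, with 3 members at an unadjusted p under 0.05). With the array number as a block, 8 members were called in A384T over mock (19% of members, 7.33% of all probe sets), 3 of them higher and 5 lower (3.9% and 3.43% of all). In WT over mock 5 were called (11.9% of members, 7.63% of all), 1 higher and 4 lower (3.98% and 3.65% of all). In R397W over A384T 9 were called (21.4% of members, 5.7% of all), 6 higher and 3 lower (2.64% and 3.07% of all). In R397W over WT 2 were called (5.78% of all), both higher (2.71% of all, beside 3.07% lower), and in A384T over WT 1, which was lower (0.515% of all, 0.246% higher and 0.269% lower). In R397W over mock the block left the count at 0 (0% of all), with 1 member at an unadjusted p under 0.05. In the fit without the block the WT share thus lay near that of all probe sets. The members were chosen with earlier results of these data known, so a higher share among them is a description and no test. The comparisons with mock share the same 3 mock arrays, and the calls below came from Runx1, Runx3, Satb1, Bcl11b and Foxp1.

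Foxp3 itself was measured by 1 probe set, 1420765_a_at. Its values were -0.19 and -0.39 in R397W cells, 0.33, 0.10 and 0.30 in A384T cells, -0.07, -0.0038 and 0.11 in WT FoxP3 cells and 0, -0.34 and 0.26 in mock cells. The 3 groups that received FoxP3 all overlapped with mock, and both R397W arrays lay below every A384T and WT array. WT over mock was 0.04 ± 0.15, with a 95% interval of -0.29 to 0.37 (adjusted p = 0.976), and A384T over mock was 0.27 ± 0.15 (adjusted p = 0.579). R397W over A384T was -0.53 ± 0.17 (adjusted p = 0.214, and 0.0733 with the block), and R397W over WT was -0.30 ± 0.17 (adjusted p = 0.642). The sources used here do not give where the probes of this set lie relative to the transduced sequence, so the probe set does not check the labels.

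Runx1, the Runx protein best known to join FoxP3 in repressing the Il2 gene, rose with both A384T and WT FoxP3 at 1 of its 6 probe sets, 1422864_at, in the fit without the block. Values there were 0.05 and 0.09 in R397W cells, 0.68, 0.92 and 0.70 in A384T cells, 0.39, 0.48 and 0.53 in WT FoxP3 cells and 0, -0.08 and 0.14 in mock cells. All A384T arrays lay above all WT arrays, and all of those above the R397W and mock arrays, which overlapped. Runx1 was 1.67-fold higher in A384T than in mock cells (0.74 ± 0.10, adjusted p = 0.00381) and 1.36-fold higher in WT FoxP3 than in mock cells (0.44 ± 0.10, adjusted p = 0.0484). R397W over A384T was -0.69 ± 0.11 (adjusted p = 0.0142), 1.62-fold lower. R397W over mock was 0.05 ± 0.11, with a 95% interval of -0.20 to 0.30, and A384T over WT was 0.30 ± 0.10 (adjusted p = 0.89, and 0.415 with the block). The call in WT over mock lay close to the threshold: when each of the 11 arrays was left out in turn it held in 1 fit, that without A384T array 2, and its adjusted p ran between 0.0444 and 0.171. The call in A384T over mock held in 11 of 11, and that in R397W over A384T was lost without either R397W array, with adjusted p = 0.13 without the first and 0.102 without the second.

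A second Runx1 probe set, 1422865_at, was chosen after its values were seen, as were the other probe sets below that passed only with the block. It read -1.95 and 0.35 in R397W cells, -1.09, 0.67 and 0.67 in A384T cells, -1.30, 0.39 and 0.45 in WT FoxP3 cells and -1.74, 0 and 0.18 in mock cells. Array 1 was far below the others in every group, so the groups overlapped. Within array numbers 1, 2 and 3 the difference was 0.66, 0.67 and 0.49 in A384T over mock and 0.44, 0.39 and 0.26 in WT over mock. A384T over mock was 0.61 ± 0.77 without the block (adjusted p = 0.874) and 0.61 ± 0.13 with it (adjusted p = 0.0142). WT over mock did not pass either fit (0.36 ± 0.13 and adjusted p = 0.126 with the block). R397W over A384T was -0.57 ± 0.14 with the block (adjusted p = 0.0448). Leaving out 1 array lost this last call in 9 of 11 fits with the block. The difference was then -0.29 without R397W array 1 (adjusted p = 0.48) and -0.86 without R397W array 2. The other 4 Runx1 probe sets were called in no comparison, in either fit. In A384T over mock 2 of them were negative, 1427650_a_at at -0.24 ± 0.19 and 1452531_at at -0.07 ± 0.19, and the mean over all 6 Runx1 probe sets was 0.24 ± 0.14 (adjusted p = 0.522).

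Runx3, the Runx protein of CD8 T cells and of type 1 helper cells, went the other way. At 1440275_at its values were 0.27 and -0.08 in R397W cells, -0.89, -0.86 and -0.95 in A384T cells, -0.18, -0.44 and -0.18 in WT FoxP3 cells and 0.26, -0.0024 and 0 in mock cells. The A384T arrays lay close together and below all other arrays, and the WT arrays lay below the mock and R397W arrays. Runx3 was 1.98-fold lower in A384T than in mock cells (-0.98 ± 0.12, adjusted p = 0.00253) and 1.99-fold higher in R397W than in A384T cells (1.00 ± 0.14, adjusted p = 0.00668). WT over mock was -0.35 ± 0.12 (adjusted p = 0.254, and 0.077 with the block). Set directly against WT, A384T was 0.63 lower (-0.63 ± 0.12, adjusted p = 0.183), which passed with the block (adjusted p = 0.0295). R397W over mock was 0.01 ± 0.14, with a 95% interval of -0.30 to 0.32. In RNA of a whole sorted population, a smaller share of cells of one kind and less RNA per cell cannot be told apart.

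The other Runx3 probe set, 1421467_at, had values of -0.78 and 0.19 in R397W cells, -1.24, -0.96 and -1.22 in A384T cells, -0.98, -0.30 and -0.87 in WT FoxP3 cells and -0.64, 0.25 and 0 in mock cells. The A384T arrays were again below every mock array, whereas the WT arrays overlapped with both. A384T over mock was -1.01 ± 0.29 (adjusted p = 0.142) and fell with the block (± 0.14, adjusted p = 0.00168). WT over mock was -0.59 ± 0.29 (adjusted p = 0.518) and fell with the block (± 0.14, adjusted p = 0.0309). R397W over A384T was 0.85 ± 0.33 (adjusted p = 0.372), and 0.83 ± 0.17 with the block (adjusted p = 0.015). When the probe sets of each gene were averaged, Runx3 was the 1 member gene called, at -0.997 ± 0.12 in A384T over mock (adjusted p = 0.000674), -0.47 ± 0.12 in WT over mock (adjusted p = 0.0443) and 0.92 in R397W over A384T (adjusted p = 0.00345).

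Cbfb, which has no DNA-binding domain of its own and stabilizes Runx proteins on DNA, stayed within narrow limits. Its 1 probe set, 1460716_a_at, differed from mock by 0.08 ± 0.16 in R397W cells, 0.02 ± 0.14 in A384T cells and 0.02 ± 0.14 in WT FoxP3 cells. The 95% interval of A384T over mock, -0.30 to 0.34, does not reach the size of the Runx1 or Runx3 differences at the called probe sets.

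**Figure D1:**
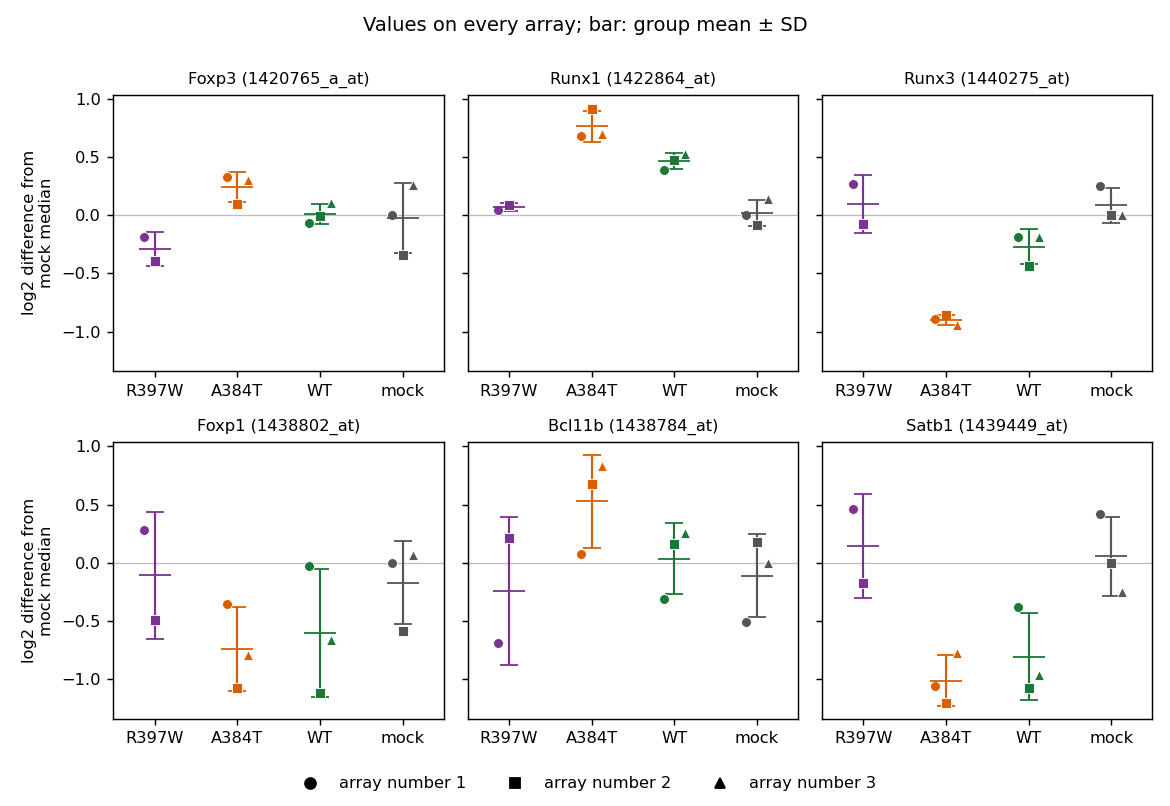
Log2 difference from the mock median (vertical axis) on every array for 6 probe sets, with symbols for the array number and bars for the group mean ± SD (2 R397W arrays, 3 in each other group). Runx1 1422864_at was highest in A384T cells and Runx3 1440275_at lowest there, whereas at Foxp3 all 3 groups given FoxP3 overlapped with mock.

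The promoters of Runx1 and Runx3 are shown because these genes carried the calls and because 1 of the 2 promoters of each holds the same pair of Runx motifs. For each gene the promoter at its most upstream start is printed. The Satb1 promoter is shown for its NFAT motif, since NFAT is a partner of FoxP3 and Satb1 is among the genes described next. The promoter windows kept for the member counts, from RefSeq (GRCm38.p6), were 18 for 8 of the 10 genes, with 0 for Nfatc1 and 0 for Ets1. The motif counts below thus leave out Nfatc1 and Ets1, which does not show that RefSeq lacks promoters for them. Windows of these genes may still be among the 32851 promoters behind the overall shares, so the member and overall sets may not have been chosen alike. The windows printed, like the others, run from 250 bases before to 50 bases after an annotated start, on the gene's strand. They are Runx1 at chr16:92826025-92826324 (minus strand), Runx3 at chr4:135120395-135120694 (plus strand) and Satb1 at chr17:51833241-51833540 (minus strand). Capitals mark the Runx motif AACCACA in the first 2 and the NFAT motif GGAAAA in Satb1.
Runx1: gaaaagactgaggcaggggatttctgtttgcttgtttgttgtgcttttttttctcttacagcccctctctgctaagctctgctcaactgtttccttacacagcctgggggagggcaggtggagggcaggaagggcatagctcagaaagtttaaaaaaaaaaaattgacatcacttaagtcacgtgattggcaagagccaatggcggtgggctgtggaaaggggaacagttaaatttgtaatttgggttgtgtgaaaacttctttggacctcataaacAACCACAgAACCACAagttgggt
Runx3: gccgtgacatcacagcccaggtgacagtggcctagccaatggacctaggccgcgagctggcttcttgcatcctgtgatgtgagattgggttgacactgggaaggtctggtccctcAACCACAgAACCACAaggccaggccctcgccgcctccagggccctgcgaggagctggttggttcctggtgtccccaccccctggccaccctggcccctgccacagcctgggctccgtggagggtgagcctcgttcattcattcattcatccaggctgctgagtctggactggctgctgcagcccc
Satb1: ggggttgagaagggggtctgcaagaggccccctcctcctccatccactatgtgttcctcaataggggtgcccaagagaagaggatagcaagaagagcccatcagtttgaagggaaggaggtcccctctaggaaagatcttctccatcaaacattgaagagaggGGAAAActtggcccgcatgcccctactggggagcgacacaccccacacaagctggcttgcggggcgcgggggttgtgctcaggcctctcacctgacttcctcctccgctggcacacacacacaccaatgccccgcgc
In Runx3 the motif starts 135 and 127 bases before the start site, and in Runx1 28 and 36 bases after it. In both genes the copies are separated by the same single base, so that they share the run AACCACAGAACCACA. On either strand this run is in 4 of all 32851 promoters (0.0122%). It was read from these 2 windows, which are among the 4, so its share is a description and no test. AACCACA or its reverse complement TGTGGTT was in 2 of the 18 windows, against 5.27% of all promoters, and 0.204% of all promoters held 2 or more. GGAAAA or TTTTCC was in 5 of the 18, in Bcl11b, 3 Satb1 windows and Foxp3, against 23.4% of all promoters (2 of those Satb1 windows overlap and hold the same single site), and the forkhead motif GTAAACA or TGTTTAC in 1, an Nfatc2 window, against 3.65%. None of these motifs contains another. A match is a description of the letters, not of binding.

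Satb1, which shapes chromatin loops in T cells and is repressed in regulatory T cells, was lower with both A384T and WT FoxP3, at some of its 5 probe sets and only with the block. At 1439449_at its values were 0.46 and -0.17 in R397W cells, -1.06, -1.20 and -0.77 in A384T cells, -0.38, -1.08 and -0.97 in WT FoxP3 cells and 0.42, 0 and -0.25 in mock cells. Every A384T and WT array lay below every R397W and mock array. A384T over mock was -1.07 ± 0.24 (adjusted p = 0.0557, and 0.0032 with the block) and WT over mock -0.86 ± 0.24 (adjusted p = 0.121, and 0.00976 with the block). R397W over WT was 0.95 ± 0.27 (adjusted p = 0.157, and 0.0201 with the block), while A384T and WT did not differ by the test (-0.21 ± 0.24, 95% interval -0.74 to 0.33). R397W over A384T was 1.16 in the limma fit without the block (adjusted p = 0.0801, and 0.00717 with the block).

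The probe set 1436182_at gave Satb1 values of 0.12 and 0.12 in R397W cells, -0.67, -0.50 and -0.30 in A384T cells, -0.57, -0.41 and -0.23 in WT FoxP3 cells and 0, -0.06 and 0.09 in mock cells. The order of the groups was as at 1439449_at, with no overlap between the A384T or WT arrays and the R397W or mock arrays. A384T over mock was -0.50 ± 0.12 (adjusted p = 0.0695, and 0.00912 with the block), WT over mock -0.42 ± 0.12 (adjusted p = 0.13, and 0.0223 with the block) and R397W over WT 0.53 ± 0.13 (adjusted p = 0.104, and 0.00936 with the block). Satb1 was also higher in R397W than in A384T cells at this probe set by limma with the block only (adjusted p = 0.0607 without it, and 0.00455 with it). Another Satb1 probe set, 1439315_at, passed with the block in WT over mock alone (-0.72 ± 0.19, adjusted p = 0.0434), and its groups overlapped. Values were -0.72 and -0.70 in R397W cells. They lay between -1.59 and 0.29 in A384T cells, -1.48 and -0.24 in WT FoxP3 cells and -0.81 and 0.25 in mock cells. Unlike at 1439449_at and 1436182_at, the R397W mean (-0.71) lay nearer to that of A384T (-0.74) than to that of mock (-0.19). The remaining Satb1 probe sets, 1416007_at and 1416008_at, were called in no comparison. All 5 Satb1 probe sets were negative in A384T over mock (-1.07 to -0.18). In WT over mock 4 were negative and 1 positive (-0.86 to 0.04). In these 2 comparisons the probe sets of Satb1 therefore differed mostly in size, and which transcripts each one matches was not known here.

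Bcl11b is a zinc finger factor that commits progenitors to the T cell lineage. With the block, 1 of its 4 probe sets was called in A384T over mock and 0 in WT over mock. At 1438784_at its values were -0.69 and 0.21 in R397W cells, 0.07, 0.68 and 0.83 in A384T cells, -0.31, 0.16 and 0.26 in WT FoxP3 cells and -0.51, 0.18 and 0 in mock cells. Array 1 was lowest in every group, and within numbers 1, 2 and 3 A384T exceeded mock by 0.58, 0.50 and 0.83. A384T over mock was 0.64 ± 0.29 (adjusted p = 0.432) and rose with the block (± 0.11, adjusted p = 0.00518), a call that held with each of the 11 arrays left out. WT over mock was 0.15 ± 0.11 with the block (adjusted p = 0.582). Tested directly, A384T over WT was 0.49 ± 0.11 with the block and missed the threshold (adjusted p = 0.107), so the effects of A384T and WT are not shown to differ. R397W over A384T was -0.66 ± 0.13 at 1438784_at with the block (adjusted p = 0.012). All 4 Bcl11b probe sets were positive in A384T over mock, between 0.27 and 0.64. Those other than 1438784_at were called in no comparison, in either fit. The mean over the 4 was 0.38 ± 0.19 by limma in A384T over mock (adjusted p = 0.406).

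The direct partners in the NFAT family showed no call in any comparison, with or without the block. The 5 probe sets of Nfatc1, also called NFAT2, lay between -0.42 and 0.09 in R397W over mock, -0.08 and 0.15 in A384T over mock and -0.13 and 0.13 in WT over mock. The 6 probe sets of Nfatc2, the NFAT protein of the structure solved with FoxP3 on DNA, lay between -0.33 and 0.24, -0.23 and 0.37, and -0.13 and 0.36 in the same comparisons. The lowest adjusted p of either gene was 0.186, for Nfatc2 in A384T over mock with the block. NFAT is governed largely by its entry into the nucleus, which these arrays do not measure.

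Foxp1, the forkhead relative that pairs with FoxP3 and keeps naive T cells quiescent, had 8 probe sets, of which 2 passed in some comparison, both with the block only. At 1438802_at its values were 0.28 and -0.49 in R397W cells, -0.36, -1.08 and -0.79 in A384T cells, -0.03, -1.12 and -0.66 in WT FoxP3 cells and 0, -0.58 and 0.06 in mock cells. All groups overlapped, and within each number the A384T array lay below the mock array. A384T over mock was -0.57 ± 0.31 (adjusted p = 0.576) and fell with the block (± 0.13, adjusted p = 0.0239), and R397W over A384T was 0.66 ± 0.15 with the block (adjusted p = 0.0293). At 1443258_at R397W over A384T was 0.47 ± 0.11 with the block (adjusted p = 0.0298), a call lost in 5 of 11 fits that left out 1 array. Over the 8 probe sets, A384T minus mock ran between -0.57 and 0.05 and was negative at 7.

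Ets1, a winged helix factor that activates many T cell genes, was negative at all 4 probe sets in A384T over mock (-0.58 to -0.29) and in WT over mock (-0.54 to -0.24), and none passed. The lowest adjusted p was 0.0913, in WT over mock with the block. R397W over mock lay between -0.37 and 0.05. Probe sets ending in _s_at, of which Ets1, Foxp1 and Nfatc1 have 1 each, can match transcripts of more than 1 gene, and none of these was called.

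**Figure D2:**
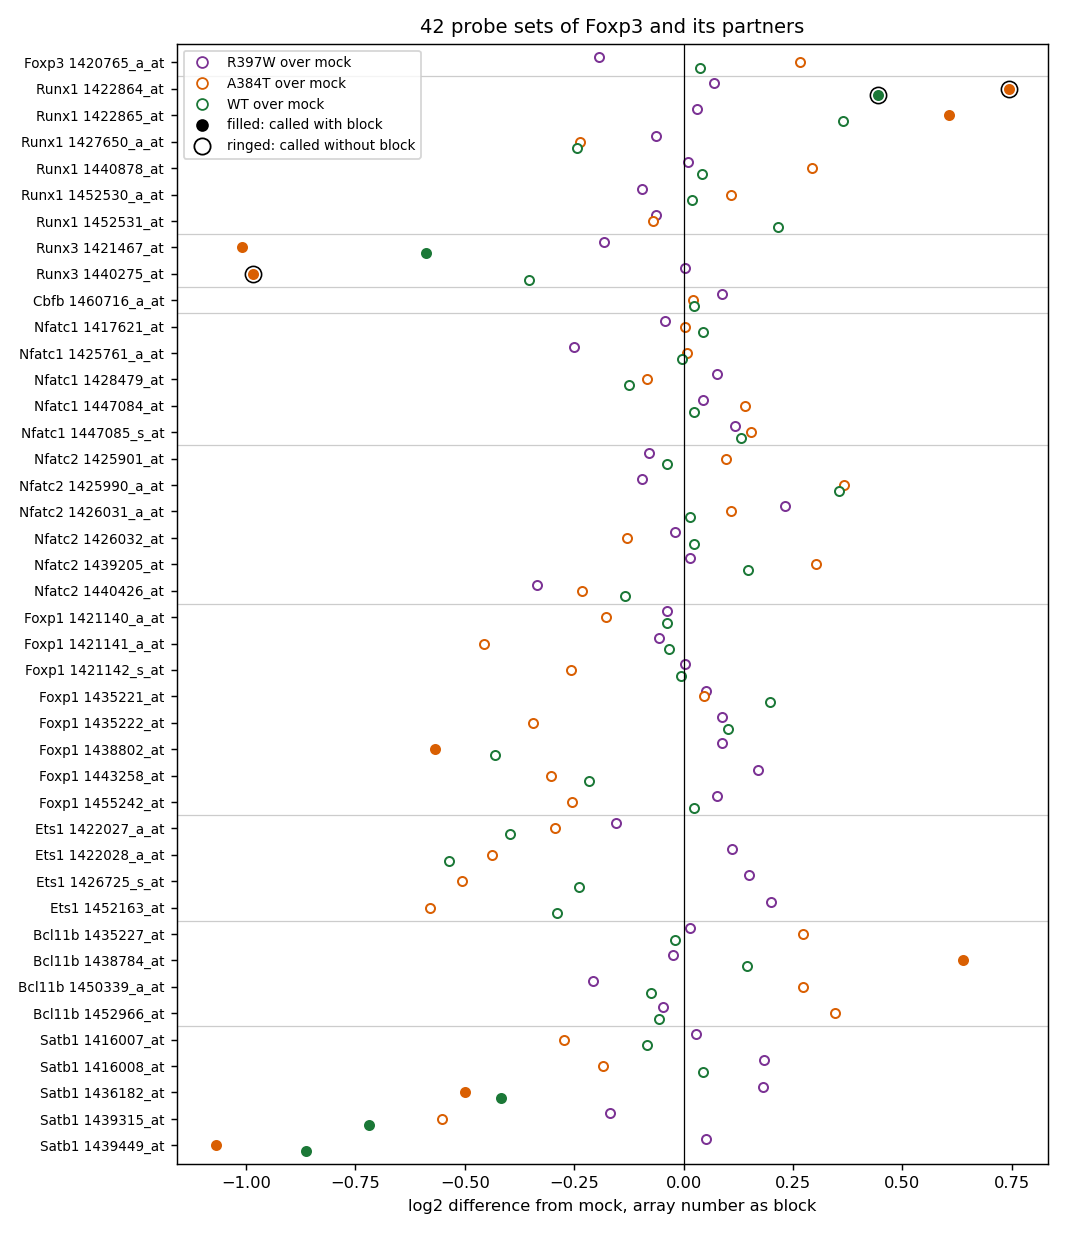
Log2 difference from mock with the array number as a block (horizontal axis) for each of the 42 probe sets (vertical axis), by FoxP3 form; filled points passed with the block and rings mark those that also passed without it. Runx3 and Satb1 lie to the left and Runx1 1422864_at and Bcl11b 1438784_at to the right for A384T, and R397W points are never filled.

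Counted by groups that did not overlap, the members did not stand above the array. In A384T over mock 5 of the 42 probe sets had no overlap (14.3% of all probe sets), in WT over mock 4 (15.1%) and in R397W over mock 3 (11.9%). In R397W over A384T and in R397W over WT the count was 8 each (22.7% and 23.3% of all), and in A384T over WT it was 3 (7.46%). The 3 in A384T over WT include Runx1 1422864_at and Runx3 1440275_at. Over all members the median difference was -0.11 in A384T over mock, against -0.0067 over all probe sets, and -0.01 in WT over mock, against -0.01 over all.

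The array number was a large source of variation among the members. The arrays numbered 1 were lowest in all 4 groups at 15 of the 42 probe sets (35.7%, against 10.2% of all probe sets) and highest at 5 (11.9%, against 10.2%). The 15 lay in Foxp1, Ets1, Bcl11b, Runx1, Runx3, Nfatc1 and Satb1. Array 1 minus the other arrays was -1.91 at Runx1 1422865_at, -1.29 at Nfatc1 1425761_a_at, -1.26 at Foxp1 1443258_at and -1.25 at Ets1 1422027_a_at. It was 0.64 at Nfatc2 1425990_a_at, and at Runx1 1422864_at, Runx3 1440275_at and Foxp3 it was -0.12, 0.22 and 0.01. The Runx1 and Runx3 calls without the block thus came from probe sets with smaller shifts than Runx1 1422865_at or Bcl11b 1438784_at (-0.69). Both of the latter were called only with the block, but so was Satb1 1436182_at, with a shift of -0.09. What the number stands for is not stated in the labels. Without the block, leaving out all arrays of 1 number left 0 called members in WT over mock, 0 to 1 in A384T over mock and 0 in R397W over A384T.

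**Figure D3:**
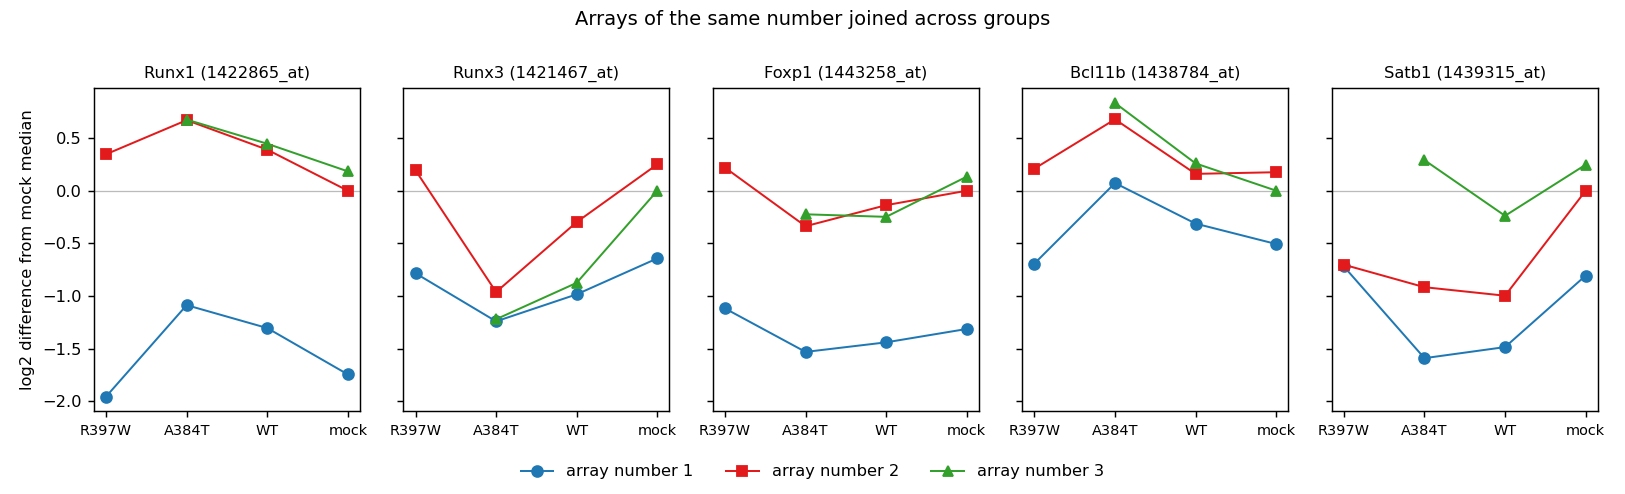
Log2 difference from the mock median (vertical axis) by group, with arrays of the same number joined, for 5 probe sets; R397W has no array 3. At Runx1 1422865_at all arrays numbered 1 lie between -1.95 and -1.09, yet every line is higher in A384T than in mock.

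**Figure D4:**
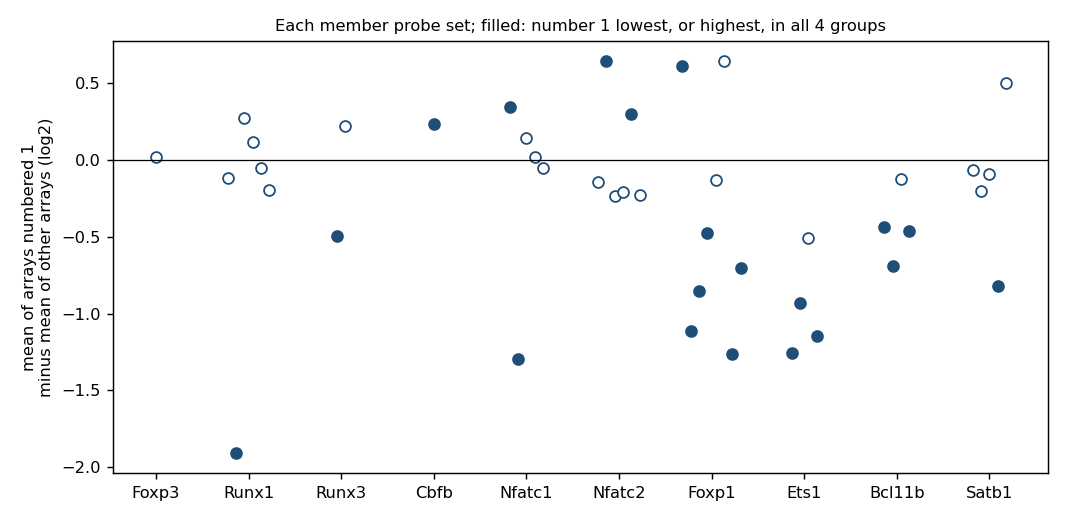
Mean of the arrays numbered 1 minus the mean of the other arrays (vertical axis, log2) for each of the 42 probe sets, by gene; filled points are those where array 1 was lowest, or highest, in all 4 groups. Foxp1, Ets1 and Bcl11b lie mostly below 0, and Runx1 1422865_at is lowest at -1.91.

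In the counts of gene lists that follow, the shares of all probe sets called without the block were 1.49% higher and 1.17% lower in WT over mock, 1.25% and 0.917% in A384T over mock, and 0.759% and 0.99% in R397W over WT. With the block they were 3.98% and 3.65%, 3.9% and 3.43%, and 2.71% and 3.07%. The lists were chosen with earlier results of these data known, so a list's share above these is a description and no test. Of other members of the partner families (Runx, NFAT, Foxp, Ets and Bcl11 relatives, 18 genes and 64 probe sets), 0 probe sets were higher and 1 lower in WT over mock, and 3 higher and 6 lower with the block. The one called without the block belonged to Elf1, an Ets factor (-1.25 ± 0.28, adjusted p = 0.0447). In A384T over mock 1 was higher and 0 lower, and 4 higher and 7 lower with the block. In R397W over WT Elf1 was at 0.99 ± 0.31 (adjusted p = 0.212), which passed with the block (adjusted p = 0.000592). Of other proteins known to bind FoxP3 (34 genes), 9 of 90 probe sets were higher and 1 lower in WT over mock, and 17 and 3 with the block. They included Irf4 (2.24 ± 0.41), which Treg cells use with FoxP3, Gata1 (2.22 ± 0.15), Ikzf2, the Helios protein of Treg cells (1.95 ± 0.20), and Xbp1 (1.84 ± 0.19), each for WT over mock. In A384T over mock 9 were higher and 0 lower, and 13 and 3 with the block. In R397W over WT 0 were higher and 8 lower, and 2 and 17 with the block, with Gata1 at -2.68 ± 0.17.

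Of the calcineurin and NFAT signalling genes (24 genes, 68 probe sets), 3 probe sets rose and 1 fell in WT over mock, and 4 rose and 6 fell with the block. Stim2, a calcium sensor of the endoplasmic reticulum, was at 0.90 ± 0.20 (adjusted p = 0.0488), Rcan3, of a family that binds calcineurin, at 0.90 ± 0.13, and Ppp3cc, a catalytic subunit of calcineurin, at -0.70 ± 0.11. In R397W over WT Rcan3 was lower (-0.89 ± 0.15, adjusted p = 0.0146). Of known regulators of the Foxp3 gene (29 genes, 78 probe sets), 2 probe sets rose, of Id3 (2.24 ± 0.22) and Uhrf1 (0.88 ± 0.17), and 1 fell, of Gfi1 (-1.57 ± 0.20), in WT over mock, and 9 rose and 4 fell with the block. Known targets of the FoxP3, NFAT and Runx complexes (25 genes, 40 probe sets) had 10 probe sets higher and 4 lower in WT over mock, and 10 and 9 with the block. In A384T over mock 9 were higher and 3 lower, and 10 and 8 with the block. In R397W over WT 4 were higher and 9 lower, and 8 and 10 with the block. The 4 called targets with the largest differences in WT over mock, Gzmb, Tnf, Itgae and Il2rb, all rose. Targets that fell had smaller differences and are not named. Tnf was 3.06 ± 0.44 in WT over mock and -3.15 ± 0.49 in R397W over WT. Il2rb, a chain of the IL-2 receptor, was 2.50 ± 0.20 and -2.48 ± 0.23. Of other T cell lineage factors (22 genes, 59 probe sets) 1 probe set, of Tox, rose in WT over mock without the block (1.36 ± 0.26) and 0 fell, and 5 rose and 2 fell with it.

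In each of these 6 lists limma without the block called 0 probe sets in R397W over mock and 0 in A384T over WT, with 0 to 2 and 1 to 8 probe sets at an unadjusted p under 0.05. With the block R397W over mock stayed at 0, whereas 3 probe sets of these lists passed in A384T over WT. They were those of Batf, a partner of Irf4 on DNA (-1.01 ± 0.32 and adjusted p = 0.8 without the block, 0.00539 with it), Itgae, an integrin chain (-1.10 ± 0.26, adjusted p = 0.369 and 0.0181 with the block), and Pde3b, a phosphodiesterase that FoxP3 represses (1.07 ± 0.17, adjusted p = 0.0756 and 0.00539 with the block).

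Markers of other cells the sort could hold were mostly flat in WT over mock. Of T cell markers 2 of 8 probe sets were called, Cd2 (0.62 ± 0.10) and Cd5 (-0.47 ± 0.10), and of CD8 and NK cell markers 1 of 8, Klrd1 (-3.28 ± 0.29), with Cd8a and Cd8b1 not called. Of B cell, macrophage and dendritic cell, granulocyte and erythroid markers 0 of 7, 0 of 8, 0 of 4 and 0 of 2 were called by limma, with 0, 1, 1 and 0 at an unadjusted p under 0.05. In A384T over mock, where Runx1 and Runx3 differed most from mock, 3 marker probe sets were called without the block: Klrd1, a receptor chain of NK and CD8 T cells, was lower (-3.19 ± 0.29, adjusted p = 0.000345), the macrophage marker Adgre1 was lower (-1.13 ± 0.19, adjusted p = 0.0131), and the T cell marker Cd2 was higher (0.61 ± 0.10, adjusted p = 0.0102). In that comparison the other 7 CD8 and NK cell probe sets were not called. The part of these markers in the members' differences was not tested.

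The genes nearest to a member in pattern were those with the smallest root mean square log2 difference over the 11 arrays. For Foxp3 they were Iffo2 (0.109), Dock8 (0.115) and Pofut2 (0.116). For Runx1 1422864_at they were Plxna1 (0.0947), Lipa (0.108) and Atp6v1d (0.11), and for Runx3 1440275_at Slc7a6 (0.152), Cd28 (0.169) and Xrcc4 (0.173). Cd28, the costimulatory receptor of T cells, averaged 0.30 in R397W cells, -0.94 in A384T cells, -0.31 in WT FoxP3 cells and 0.03 in mock cells, beside 0.10, -0.90, -0.27 and 0.08 for Runx3. For Satb1 1439449_at the nearest were H2-Q10 (0.177), E330020D12Rik (0.201) and Dpp4 (0.201), and for Bcl11b 1438784_at Tnks2 (0.155), Rapgef6 (0.156) and Ddx19b (0.157). These are descriptions over the same arrays, which share their array numbers.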

How the data were processed

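Total RNA of 11 samples was labelled with biotin and measured on 1 Affymetrix array each. The authors deposited log2 values; the submitters' processing notes name RMA (no version). At all 45101 probe sets the median over mock arrays equalled 0, so the deposited values had been centred on mock. The sources used here state neither that step nor the base of the logarithm, taken as 2. Levels are lost by centring, and no filter on low values could be set, so all 42 member probe sets were tested. Symbols came from the platform annotation (34958 probe sets with 1 symbol, 932 with several, 9211 with none listed). After 64 control probe sets were left out, 45037 were fitted with limma 3.58.1 (R 4.3.3) on all 11 arrays, 1 mean per group and 6 contrasts, tested with eBayes and adjusted by Benjamini-Hochberg within each contrast. There were 7 residual degrees of freedom, and 5 with the block.

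Titles number the arrays within a group. Deviations from the group means correlated between same-numbered arrays at 0.107 to 0.718 in all 15 pairs, all over 0.1, so the number was treated as pairing the arrays. The calculations were tested on simulated data. Promoter windows came from RefSeq. Python 3.11.15 with matplotlib 3.10.9 and pandas 2.3.3 drew the figures. The members and the 12 gene lists were chosen with earlier results of these data known. Values on every array were to be given for Foxp3 and for probe sets called without the block. From each list up to 4 called genes with the largest difference were to be named, or up to 2 genes otherwise, of which some appear in the text; for Foxp3 and 4 members the 3 nearest genes were named. Alternatives were the block, a trended robust prior, 2 groups per fit, array medians set to 0, array weights, 1 probe set or the mean of probe sets per gene, and leaving out arrays or array numbers.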

Additional observations from a re-analysis of the deposited data

How the results depend on the processing

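The number of called members depended on the model. The values below follow the order WT over mock, A384T over mock, R397W over A384T, and the counts without the block were 1, 2 and 2. With the array number as a replicate block, which the pairing check allows, they were 5, 8 and 9, with 1 in A384T over WT and 2 in R397W over WT, where the fit without the block called 0. A trended robust prior gave 0, 1 and 1, in which Runx1 1422864_at was lost (adjusted p = 0.054 in A384T over mock) and Runx3 1440275_at was kept. Fits of 2 groups gave 0, 2 and 0, and the mean of a gene's probe sets 1, 1 and 1. Keeping 1 probe set per gene, the most variable one, gave 0, 0 and 0. By spread between arrays, that choice takes Runx1 1422865_at (SD 1.01) over 1422864_at (0.33), and Runx3 1421467_at (0.55) over 1440275_at (0.45). The probe sets called without the block were thus not in that fit, so its counts do not test those calls. Setting array medians to 0 and array weights left the counts as they were. Leaving out 1 array gave 0 to 1, 2 to 3 and 0 to 3, and leaving out 1 number in every group 0, 0 to 1 and 0. The block with 1 array left out, chosen after seeing the data, gave 0 to 6, 5 to 12 and 1 to 13, with 0 to 2 in A384T over WT and 0 to 3 in R397W over WT (10 in A384T over mock without A384T array 3, and 10 in R397W over A384T without mock array 3). The block with 1 number left out, also chosen after seeing the data, gave 0 to 4, 2 to 9 and 0 to 7, with 0 to 3 in R397W over WT. R397W over mock stayed at 0 in every fit run. Runx3 1440275_at in R397W over A384T was lost without R397W array 1 (adjusted p = 0.0809). Its call with the block in A384T over WT was lost in 7 of 11 fits that left out 1 array (highest adjusted p = 0.212). Of the calls with the block, those of Runx1 1422864_at, Runx3 1440275_at, Runx3 1421467_at, Bcl11b 1438784_at and Satb1 1439449_at in A384T over mock held in all 11 such fits, as did Runx3 1440275_at in R397W over A384T, and each of the others was lost in 1 to 9. Without the block, Runx1 1422864_at in A384T over mock was lost without the arrays numbered 1 or 2 (adjusted p = 0.0874 and 0.18), and Runx3 1440275_at without those numbered 2 or 3 (0.0749 and 0.0577). Without the block, 2 probe sets with a large array 1 shift turned sign when the arrays left were unbalanced. Runx1 1422865_at was -0.0056 in A384T over mock without mock array 1 (range -0.0056 to 1.19) and 0.26 in R397W over A384T without R397W array 1 (range -2.04 to 0.26). Foxp1 1443258_at in R397W over A384T was -0.17 without A384T array 1, -0.42 without R397W array 2 (range -0.42 to 0.92) and -0.24 without the arrays numbered 2. With 1 R397W array left, it was assumed to vary like the other groups. Signal over background could not be read from centred values.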
